A study of Rattus norvegicus with 28 samples.

Results

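The 5 genes described here are Per1, Nfil3, Bhlhe40, Nr1d1 and Noct. They were chosen by gene symbol because each is tied to the circadian clock, with earlier results of these data known. Each had 1 probe on the array (Per1 ILMN_1353839, Nfil3 ILMN_1360188, Bhlhe40 ILMN_1374180, Nr1d1 ILMN_1363753, Noct ILMN_1367962), out of 7958 named genes with a measurable probe, and all 5 were detected on all 28 arrays. The cells were C6, a rat glioma line used as a model of astrocytes. Every culture first spent 24 h in serum-free medium. Groups then received desipramine (6 arrays), fluoxetine (6), haloperidol (6) or diazepam (4, numbered 1, 4, 5 and 6) at 25 µM for 2 h, or were left untreated (6). Desipramine and fluoxetine are antidepressants, haloperidol is an antipsychotic and diazepam is a benzodiazepine. The labels name no vehicle, 1 dose and 1 time were used, and all groups came from 1 cell line, so the replicates, which the labels call biological, measure the spread between cultures of that line.

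The mammalian clock is a transcriptional feedback loop. The activators Clock and Bmal1 bind E-box sequences and switch on the Per and Cry genes, whose proteins then block the activators. Per1 is the member of that loop that many outside signals induce quickly, including cAMP and glucocorticoids. Bhlhe40 (also Dec1) is a basic helix-loop-helix repressor that competes for E-boxes. Nr1d1 (Rev-erb alpha) is a nuclear receptor that represses Bmal1, and Nfil3 (E4bp4) is a leucine zipper repressor that binds D-box sequences in competition with Dbp and Tef. Noct encodes nocturnin, a rhythmic phosphatase of the deadenylase family, and is not a transcription factor. Several of these genes are also early response genes in cells that receive a stimulus.

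The windows around the annotated starts of the 3 repressor genes are shown because each holds 1 of the motifs that clock or signal factors are known to bind. Sequences are from RefSeq, build GRCr8, 250 bases before to 50 bases after a start, 5′ to 3′ on the gene's strand, with the matched motif in capitals.
Nfil3: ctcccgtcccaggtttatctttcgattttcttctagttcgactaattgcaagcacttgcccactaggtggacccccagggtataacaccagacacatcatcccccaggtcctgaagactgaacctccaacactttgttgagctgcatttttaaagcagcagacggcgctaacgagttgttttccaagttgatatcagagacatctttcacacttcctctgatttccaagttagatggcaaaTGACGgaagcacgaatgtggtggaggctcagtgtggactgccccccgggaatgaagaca
Bhlhe40: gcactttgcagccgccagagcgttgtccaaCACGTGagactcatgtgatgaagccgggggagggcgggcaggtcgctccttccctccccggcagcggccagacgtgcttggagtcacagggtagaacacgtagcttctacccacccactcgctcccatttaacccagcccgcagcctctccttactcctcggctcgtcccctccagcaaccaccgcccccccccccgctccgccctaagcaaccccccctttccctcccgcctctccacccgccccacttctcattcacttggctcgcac
Nr1d1: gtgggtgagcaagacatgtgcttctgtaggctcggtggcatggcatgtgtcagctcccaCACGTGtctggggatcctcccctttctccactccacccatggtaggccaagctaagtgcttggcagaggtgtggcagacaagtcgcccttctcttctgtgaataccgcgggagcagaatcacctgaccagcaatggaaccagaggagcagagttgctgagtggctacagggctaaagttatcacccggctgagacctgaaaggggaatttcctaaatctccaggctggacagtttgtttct
The Nfil3 window (chr17:12432126-12432425, + strand) held the cAMP response half-element TGACG at position -9 from the start. The Bhlhe40 window (chr4:143174200-143174499, + strand) held an E-box, CACGTG, at -220, and the window of 1 of the 2 listed Nr1d1 starts (chr10:84229405-84229704, - strand) held an E-box at -191.

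Both strands were searched for 6 motifs, and no matches overlapped. Among 33469 rat windows of the same length, 6.42% held the E-box and 21.2% held TGACG, so a match to TGACG is common. The D-box TTANGTAA (2.24% of windows), the full cAMP response element TGACGTCA (1.83%), the amino acid response element core TGATGNAA (3.98%) and the ROR element core TAGGTCA (2.63%) were in none of the members' windows. The windows of Per1, Noct and the other Nr1d1 start held none of the 6. A match describes these letters and was not tested as a binding site. Only exact letters were searched, so a window without a match may still hold a variant of a motif.

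The arrays held between 9839 and 10537 detected probes each. Of 10 astrocyte markers 7 had a probe. Gfap, S100b, Slc1a3, Gja1 and Vim were detected on all 28 arrays and Aqp4 on none. None of 5 microglial and none of 4 endothelial markers with a probe was detected on all arrays. However, endothelial Cldn5 was detected on 26 arrays and microglial Cx3cr1 on 16. Of 8 neuronal markers 4 (Syt1, Nefl, Map2 and Eno2) and of 7 oligodendrocyte markers 3 (Cnp, Olig1 and Sox10) were also detected on all arrays, and Snap25, Syn1, Mog and Mag on none. Nefl fell with fluoxetine (log2 change -0.58), haloperidol (-0.40) and diazepam (-0.41), and Olig1 fell with desipramine (-0.69). The astrocyte marker Vim fell with fluoxetine (-0.35). The mean log2 level of the 7 astrocyte markers ranged from 8.72 to 8.86 on desipramine arrays, 8.70 to 8.84 on fluoxetine arrays, 8.72 to 8.87 on haloperidol arrays and 8.78 to 8.89 on diazepam arrays, against 8.82 to 8.97 on untreated arrays, and its part in the results below was not tested. Arrays with replicate numbers 5 and 6 stood apart from the rest on the first principal component (18.7% of variance, 5.12 to 15.3 against -15.8 to 2.20 for numbers 1 to 4), so changes are also given within these 2 sets. Desipramine array 6 had the lowest Bhlhe40 and Noct values and the highest Nfil3 value of its group, and untreated array 1 the highest Per1, Bhlhe40 and Noct values and the lowest Nr1d1 value of its own. Of these, the Bhlhe40 value of desipramine array 6 was past Dixon's critical value and the others were not.

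Across the 5 genes and 4 drugs, 12 of 20 changes against untreated cells passed an adjusted p of 0.05 and all 12 were rises. Noct rose with every drug, and it was the only member to pass with diazepam in the fit to all arrays. Fluoxetine raised all 5 genes, haloperidol raised Per1, Nfil3 and Noct, and desipramine raised Per1, Bhlhe40 and Noct. The median change of the 5 genes was 0.43 log2 units with desipramine, 0.75 with fluoxetine, 0.70 with haloperidol and 0.24 with diazepam, against -0.01, -0.00083, -0.0020 and 0.0026 over all probes tested. The 4 comparisons share the untreated arrays, so an unusual untreated value moves all of them together. Because the 5 genes were chosen with earlier results of these data known, their counts and medians beside all probes are descriptions only.

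Of all 11364 probes tested, 3.37% were higher with desipramine, 2.21% with fluoxetine, 2.28% with haloperidol and 0.378% with diazepam at that threshold. Counting both directions, 635 probes passed with desipramine, 426 with fluoxetine, 424 with haloperidol and 90 with diazepam. With the replicate number as a block, the counts were 1105, 861, 848 and 172. Of the probes called, 60.3% were higher with desipramine (33.1% under median scaling) and 47.8% with diazepam (9.52% under median scaling and 34.7% in the authors' normalized values).

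**Figure D1:**
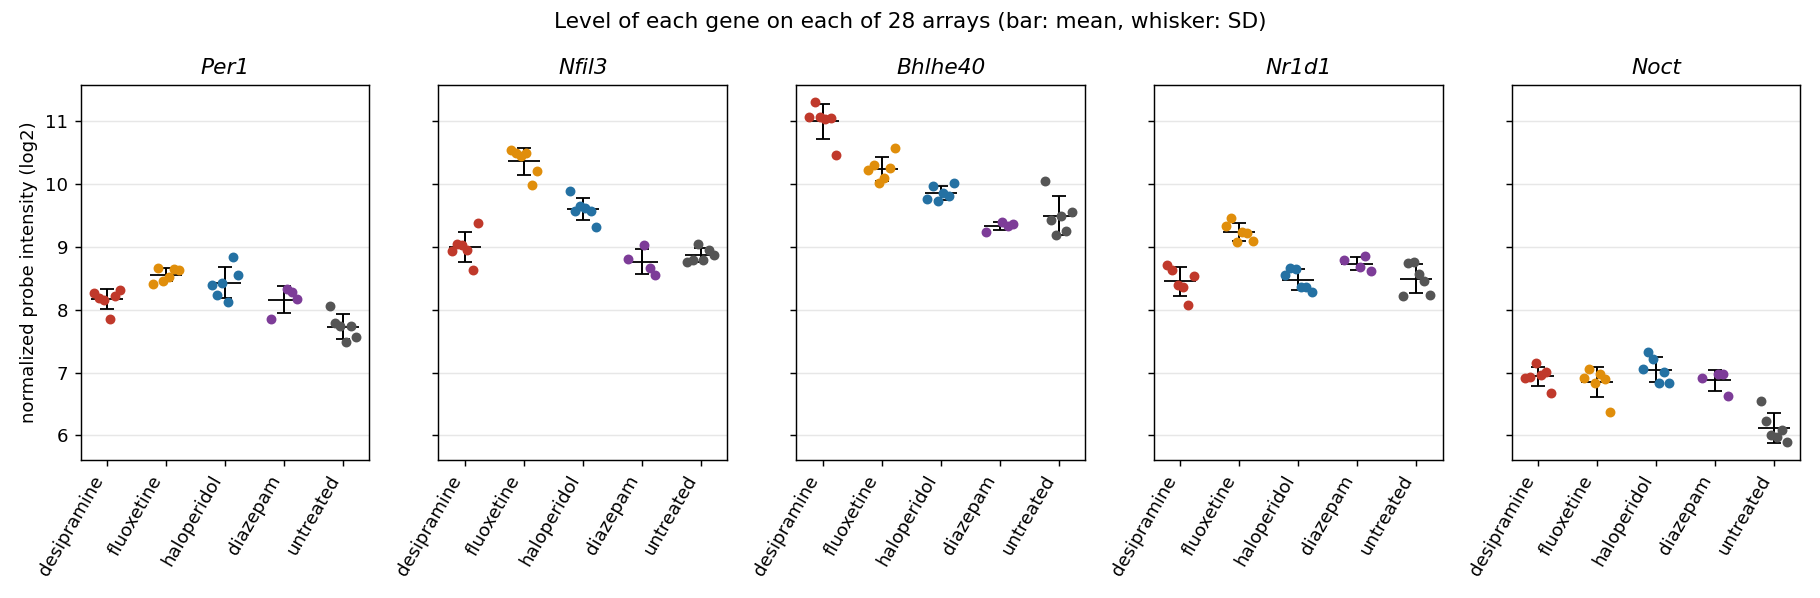
Normalized probe intensity (log2, vertical axis) of each gene on each array, by group, with points in order of replicate number, a bar at the mean and a whisker of 1 SD (n = 6 per group, 4 for diazepam). Every drug-treated mean of Noct lay above the untreated mean, Nfil3 was highest with fluoxetine and Bhlhe40 with desipramine. Levels of different genes come from different probes and are not comparable.

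Noct was the member that all 4 drugs moved. Its log2 intensity had a lowest, median and highest value of 6.68, 6.95 and 7.15 with desipramine, 6.38, 6.91 and 7.06 with fluoxetine and 6.83, 7.03 and 7.33 with haloperidol, and was 6.92, 6.97, 6.97 and 6.63 on the 4 diazepam arrays, against 5.89, 6.05 and 6.54 in untreated cells. All desipramine, haloperidol and diazepam arrays lay above all untreated arrays, while fluoxetine array 6, at 6.38, lay below untreated array 1. Groups that did not overlap and lay above untreated were found for 1.46% of probes with desipramine, 1.57% with haloperidol and 1.12% with diazepam.

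The Noct rise was of the largest size with haloperidol (log2 change 0.93 ± 0.11 SE, n = 6 and 6, limma adjusted p = 4.8e-06). It rose 1.76-fold with desipramine (0.82 ± 0.11, limma adjusted p = 2.07e-05), 1.69-fold with diazepam (0.75 ± 0.13, n = 4 and 6, limma adjusted p = 0.00115) and 1.65-fold with fluoxetine (0.72 ± 0.11, limma adjusted p = 8.28e-05). Against the untreated array of the same number, Noct was higher in 22 of 22 drug arrays, by 0.37 to 1.21 log2 units. Each untreated array serves several drugs, so these 22 differences are not independent. The order of the 4 drugs was not resolved. None of the 6 differences between drugs passed, and the widest of them, fluoxetine minus haloperidol, was -0.20 (95% interval -0.43 to 0.03, limma adjusted p = 0.487).

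Within arrays numbered 1 to 4, Noct changed by 0.80 with desipramine, 0.76 with fluoxetine, 0.92 with haloperidol and 0.76 with diazepam, all past the threshold. Arrays numbered 5 and 6 gave changes of 0.86, 0.65, 0.93 and 0.81, none of which passed with 2 arrays a group (limma adjusted p from 0.129 to 0.425). The diazepam call was also lost under median scaling (0.63, limma adjusted p = 0.19, with alternatives ranging from 1.95e-05 to 0.238), where the median of all probes shifted by -0.12.

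Per1, the stimulus-responsive Period gene, rose with fluoxetine, haloperidol and desipramine. Its log2 intensity had a lowest, median and highest value of 7.85, 8.20 and 8.31 with desipramine, 8.41, 8.58 and 8.66 with fluoxetine and 8.13, 8.41 and 8.84 with haloperidol, and was 7.85, 8.33, 8.28 and 8.17 on diazepam arrays 1, 4, 5 and 6, against 7.48, 7.74 and 8.06 in untreated cells. Fluoxetine and haloperidol arrays all lay above all untreated arrays, as did 5 of 6 desipramine and 3 of 4 diazepam arrays. Groups that did not overlap and lay above untreated were found for 2% of probes with fluoxetine.

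Per1 rose 1.77-fold with fluoxetine (log2 change 0.83 ± 0.11 SE, n = 6 and 6, limma adjusted p = 4.15e-06), 1.62-fold with haloperidol (0.70 ± 0.11, limma adjusted p = 0.000131) and 1.35-fold with desipramine (0.43 ± 0.11, limma adjusted p = 0.0116). With diazepam its change of 0.43 ± 0.12 was of the same size as with desipramine but did not pass (n = 4 and 6, limma adjusted p = 0.102). Without untreated array 1 the diazepam change was 0.49 and passed (limma adjusted p = 0.0353), and without diazepam array 1 it was 0.53 and passed (0.0349). Over all alternatives the limma adjusted p ran from 0.017 to 0.958. The desipramine rise missed the threshold under median scaling (0.31, limma adjusted p = 0.325, and from 0.00265 over all alternatives), within arrays numbered 1 to 4 (0.35, limma adjusted p = 0.138) and within those numbered 5 and 6 (0.60, limma adjusted p = 0.286).

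The other Per1 rises passed within both sets of arrays. With fluoxetine Per1 changed by 0.75 in arrays numbered 1 to 4 and 0.98 in those numbered 5 and 6, and with haloperidol by 0.53 and 1.03. Between drugs, Per1 was lower with desipramine than with fluoxetine by a log2 change of -0.39 (95% interval -0.61 to -0.17, limma adjusted p = 0.0188), and higher with fluoxetine than with diazepam by 0.40 (0.15 to 0.64, limma adjusted p = 0.0492). The first of these was lost without desipramine array 4 (-0.33, limma adjusted p = 0.072), and the second without any 1 of 9 of the 10 arrays in it, diazepam array 4 being the exception (0.30 to 0.44, limma adjusted p from 0.0524 to 0.214). The first was also lost under median scaling (-0.47, limma adjusted p = 0.0943), in arrays numbered 1 to 4 (-0.40, 0.0606) and in those numbered 5 and 6 (-0.38, 0.687). The second was also lost under median scaling (0.52, limma adjusted p = 0.135), with no detection filter (0.085), in arrays numbered 1 to 4 (0.42, 0.221), in those numbered 5 and 6 (0.42, 0.282) and without the arrays numbered 1 (0.33, 0.178). The other 4 differences in Per1 did not pass: 0.13 for fluoxetine minus haloperidol (95% interval -0.09 to 0.35), -0.26 for desipramine minus haloperidol (-0.48 to -0.04, limma adjusted p = 0.143), 0.27 for haloperidol minus diazepam (0.03 to 0.51, limma adjusted p = 0.275) and 0.01 for desipramine minus diazepam (-0.24 to 0.25). The order of haloperidol among the drugs was therefore not resolved.

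**Figure D2:**
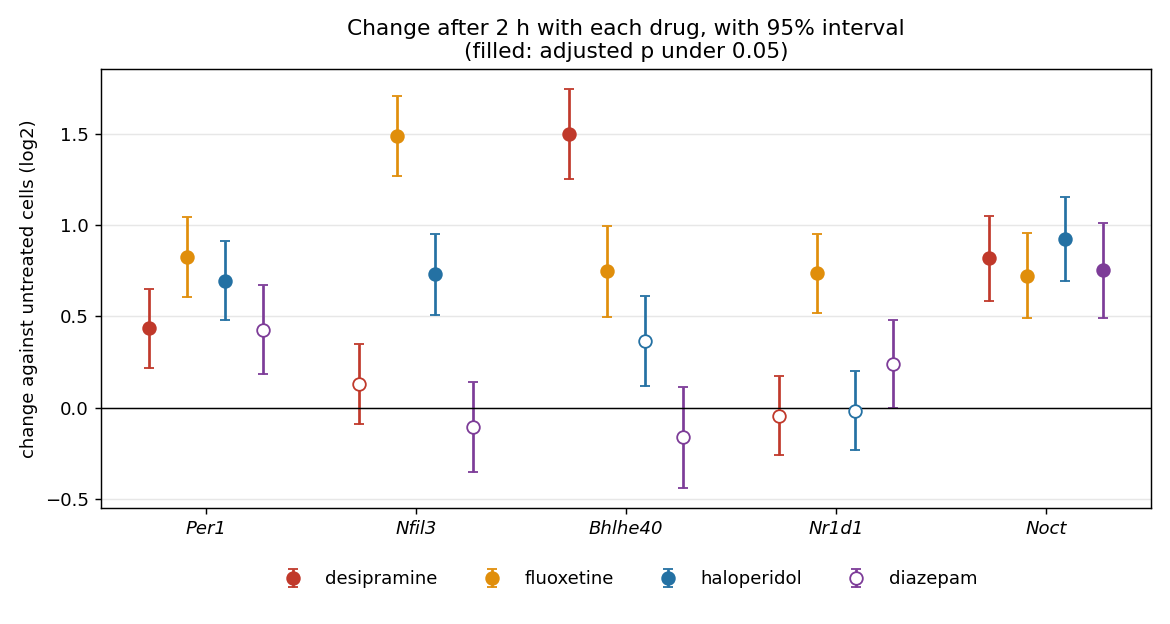
Change against untreated cells (log2, vertical axis) of each gene with each drug, with its 95% interval from the fit to all arrays. Filled points passed an adjusted p of 0.05: all 4 for Noct, 3 for Per1, and both Nfil3 and Bhlhe40 differ widely between desipramine and fluoxetine.

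Nfil3, the D-box repressor, was raised by fluoxetine and haloperidol. Its log2 intensity had a lowest, median and highest value of 8.63, 8.99 and 9.38 with desipramine, 9.99, 10.46 and 10.54 with fluoxetine and 9.32, 9.59 and 9.88 with haloperidol, and was 8.80, 9.02, 8.67 and 8.56 on the diazepam arrays, against 8.76, 8.83 and 9.05 in untreated cells. The fluoxetine and haloperidol arrays lay above every untreated array and did not overlap each other. Of all probes, 2% lay above untreated without overlap with fluoxetine and 1.57% with haloperidol, and the share between drugs was not computed. Desipramine and diazepam arrays overlapped the untreated ones.

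Nfil3 rose 2.81-fold with fluoxetine (log2 change 1.49 ± 0.11 SE, n = 6 and 6, limma adjusted p = 5.17e-11), which was the 10th largest absolute change of the 11364 probes. With haloperidol it rose 1.66-fold (0.73 ± 0.11, limma adjusted p = 8.16e-05). Its changes of 0.13 with desipramine (95% interval -0.09 to 0.35) and -0.11 with diazepam (-0.35 to 0.14) did not pass. Of the 6 differences between drugs 5 passed: fluoxetine exceeded haloperidol by 0.76 (0.54 to 0.98, limma adjusted p = 4.65e-05) and diazepam by 1.60, haloperidol exceeded diazepam by 0.84, and desipramine lay below fluoxetine (-1.36) and haloperidol (-0.60, limma adjusted p = 0.000449). Desipramine and diazepam differed by 0.24 (-0.01 to 0.48), which did not pass. In arrays numbered 5 and 6, 4 of these 5 calls were lost: -1.09 for desipramine minus fluoxetine (limma adjusted p = 0.386), -0.43 for desipramine minus haloperidol (0.489), 0.65 for fluoxetine minus haloperidol (0.438) and 0.83 for haloperidol minus diazepam (0.167).

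The fluoxetine rise in Nfil3 was 1.64 in arrays numbered 1 to 4 and 1.19 in those numbered 5 and 6 (limma adjusted p = 0.0546 for numbers 5 and 6, and from 3.34e-12 over all alternatives). The haloperidol change was 0.83 in the first set and 0.53 in the second, where it did not pass (limma adjusted p = 0.425). Nfil3 was higher than on the same-numbered untreated array in 6 of 6 fluoxetine and 6 of 6 haloperidol arrays, in 4 of 6 desipramine arrays and in 2 of 4 diazepam arrays. The highest of the desipramine values, 9.38, was on array 6.

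Bhlhe40, the E-box repressor, showed another order, with desipramine first. Its log2 intensity had a lowest, median and highest value of 10.46, 11.05 and 11.30 with desipramine, 10.01, 10.23 and 10.56 with fluoxetine and 9.73, 9.83 and 10.01 with haloperidol, and was 9.23, 9.39, 9.33 and 9.36 on the diazepam arrays, against 9.18, 9.46 and 10.05 in untreated cells. Every desipramine array lay above every untreated array, as was found for 1.46% of all probes. Untreated array 1, at 10.05, was above all haloperidol arrays and 1 fluoxetine array, and the other untreated arrays ended at 9.55.

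Bhlhe40 rose 2.83-fold with desipramine (log2 change 1.50 ± 0.12 SE, n = 6 and 6, limma adjusted p = 4.46e-09), which had the smallest p of the 11364 probes in that comparison. It rose 1.68-fold with fluoxetine (0.75 ± 0.12, limma adjusted p = 0.000141). With haloperidol its change of 0.36 (95% interval 0.12 to 0.61) did not pass (limma adjusted p = 0.0959), but did without untreated array 1 (0.48, limma adjusted p = 0.00974, and from 0.00615 to 0.554 over all alternatives). With diazepam the change was -0.16 (-0.44 to 0.11).

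Between drugs, Bhlhe40 was higher with desipramine than with fluoxetine by 0.76 (95% interval 0.51 to 1.00, limma adjusted p = 0.00013), than with haloperidol by 1.14 and than with diazepam by 1.67. Fluoxetine exceeded diazepam by 0.91 (limma adjusted p = 3.82e-05) and haloperidol exceeded diazepam by 0.53 (limma adjusted p = 0.0312), a call that was lost without haloperidol array 2, 5 or 6 or any 1 diazepam array (0.50 to 0.55, limma adjusted p from 0.0509 to 0.101). That call was also lost under median scaling (0.68, limma adjusted p = 0.0896), with no detection filter (0.0566), in arrays numbered 1 to 4 (0.52, 0.251), in those numbered 5 and 6 (0.56, 0.258) and without the arrays numbered 1 (0.51, 0.0693). Fluoxetine and haloperidol differed by 0.38 (0.13 to 0.63, limma adjusted p = 0.0817), short of the threshold. In arrays numbered 1 to 4 the changes against untreated cells were 1.58 with desipramine and 0.62 with fluoxetine, and in those numbered 5 and 6 they were 1.35 and 1.00, without passing (limma adjusted p = 0.157 and 0.108). The difference between the antidepressants in arrays numbered 5 and 6 was 0.35 (limma adjusted p = 0.809), smaller than over all arrays. Desipramine array 6 had the lowest Bhlhe40 value of its group and fluoxetine array 6 the highest of its own.

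The values of Nfil3 and Bhlhe40 can be set side by side for the 2 antidepressants. The log2 value of Bhlhe40 minus that of Nfil3 was 2.13, 2.25, 2.03, 2.07, 2.41 and 1.08 on desipramine arrays 1 to 6, and -0.32, -0.18, -0.44, -0.40, 0.26 and 0.37 on fluoxetine arrays 1 to 6. The groups did not overlap, although array 6 was the lowest of desipramine and the highest of fluoxetine. The mean difference was 2.12 log2 units over all arrays, 2.46 in arrays numbered 1 to 4 and 1.43 in those numbered 5 and 6. This pair of genes was chosen with earlier results of these data known, so the difference is given as a description with no test.

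Over the 5 genes and 6 pairs of drugs, 15 of 30 differences passed. Of the members, 4 differed between desipramine and fluoxetine (8.29% of all probes), 2 between desipramine and haloperidol (8.26%) and 1 between desipramine and diazepam (8.09%). Between fluoxetine and haloperidol 2 differed (3.63%), between fluoxetine and diazepam 4 (4.78%) and between haloperidol and diazepam 2 (2.3%).

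**Figure D3:**
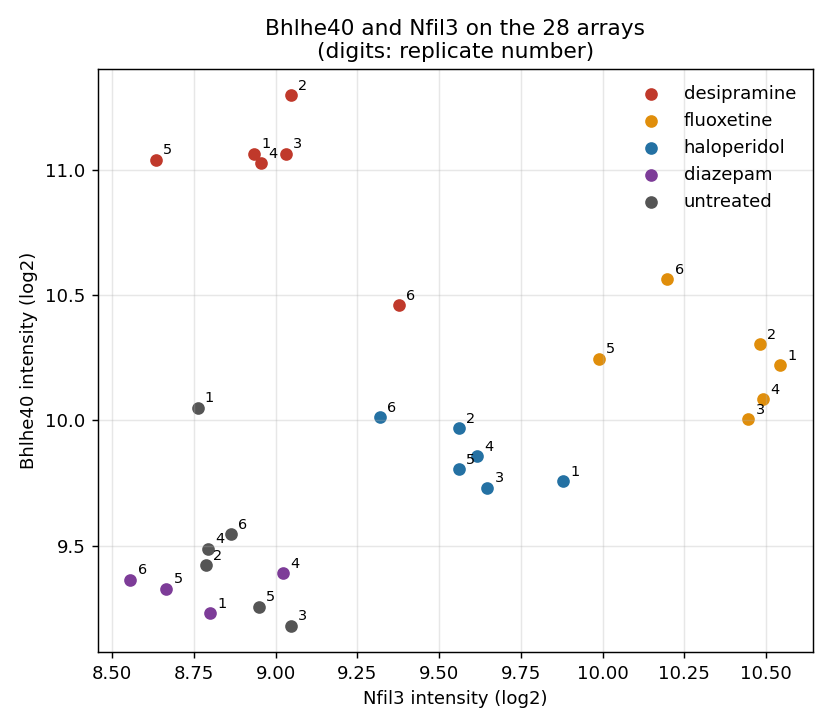
Log2 intensity of Bhlhe40 (vertical axis) against Nfil3 (horizontal axis) on the 28 arrays, 1 point per array with its replicate number. Desipramine arrays lie high on the Bhlhe40 axis, fluoxetine arrays lie furthest along the Nfil3 axis, and desipramine array 6 lies between the other desipramine and the fluoxetine arrays.

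Nr1d1, which encodes the nuclear receptor repressor of Bmal1, passed with fluoxetine and with no other drug. Its log2 intensity had a lowest, median and highest value of 8.07, 8.46 and 8.70 with desipramine, 9.07, 9.22 and 9.46 with fluoxetine and 8.28, 8.46 and 8.66 with haloperidol, and was 8.79, 8.67, 8.84 and 8.62 on the diazepam arrays, against 8.22, 8.51 and 8.75 in untreated cells. Every fluoxetine array lay above every array of the other 4 groups. Against untreated cells alone, 2% of all probes did so with fluoxetine, and the share between drugs was not computed.

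Nr1d1 rose 1.67-fold with fluoxetine (log2 change 0.74 ± 0.11 SE, n = 6 and 6, limma adjusted p = 2.01e-05). The differences themselves passed: fluoxetine exceeded haloperidol by 0.75 (95% interval 0.54 to 0.97, limma adjusted p = 3.58e-05) and diazepam by 0.50 (0.26 to 0.74, limma adjusted p = 0.00935), and desipramine lay below fluoxetine (-0.78, limma adjusted p = 1.52e-05). The difference from diazepam did not pass in arrays numbered 1 to 4 (0.54, limma adjusted p = 0.0659) or in those numbered 5 and 6 (0.41, limma adjusted p = 0.39). The differences from haloperidol and desipramine did not pass in arrays numbered 5 and 6 (0.83, limma adjusted p = 0.177, and -0.84, limma adjusted p = 0.386). The changes against untreated cells were -0.05 with desipramine (-0.26 to 0.17), -0.02 with haloperidol (-0.23 to 0.20) and 0.24 with diazepam (-0.0037 to 0.48). The fluoxetine change was 0.70 in arrays numbered 1 to 4 and 0.81 in those numbered 5 and 6, where it did not pass (limma adjusted p = 0.125, and from 4.04e-06 over all alternatives).

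**Figure D4:**
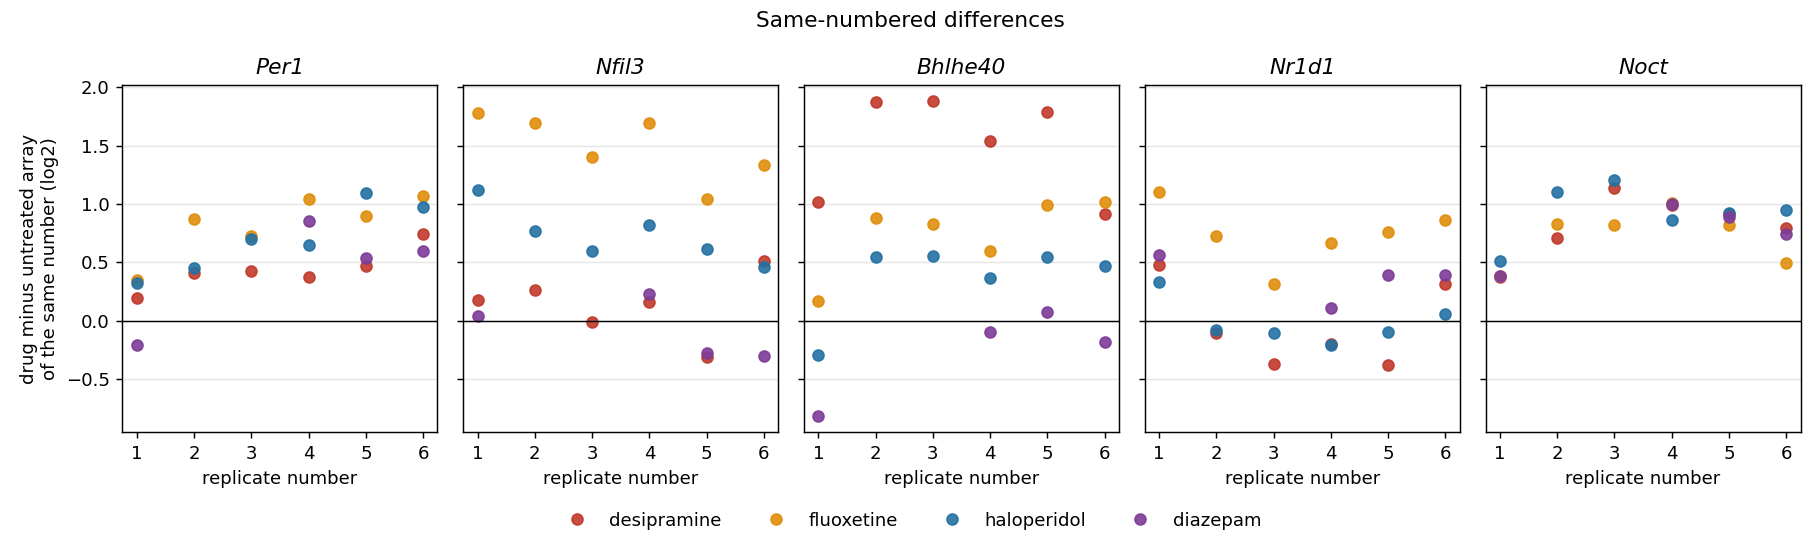
Difference of each drug array from the untreated array with the same replicate number (log2, vertical axis), by replicate number (horizontal axis), for each gene. All 22 Noct differences were above 0, as were 21 of 22 for Per1, 18 of 22 for Nfil3 and for Bhlhe40 and 14 of 22 for Nr1d1. Those of number 1 rest on the untreated array that was highest of its group for Per1, Bhlhe40 and Noct. Each untreated array serves several drugs, so the differences of a gene are not independent.

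With group entered first, replicate number held a smaller share of the members' spread than group did. Of the total sum of squares, the 5 groups held 92.0% for Nfil3, 89.6% for Bhlhe40, 77.0% for Noct, 76.2% for Nr1d1 and 74.1% for Per1. The replicate number held a further 1.94%, 1.65%, 13.7%, 9.86% and 6.51% of it. All changes and differences printed here are from the fit without the replicate number. With the number as a block, none of the 20 calls against untreated cells changed, and of the 30 differences between drugs 1 call was added (Nr1d1, desipramine minus diazepam, -0.35, limma adjusted p = 0.0274).

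Other clock genes were counted beside the members, which were set apart from them with earlier results of these data known. Of 28 listed clock genes besides the members, 18 had a probe and 15 had a measurable one. At an adjusted p under 0.05 in limma, 1 of these 15 was higher with desipramine and 1 with haloperidol. With fluoxetine and diazepam 0 were higher, and 0 were lower with any drug. Of all probes, 3.37% were higher with desipramine, 2.21% with fluoxetine, 2.28% with haloperidol and 0.378% with diazepam. At an unadjusted p under 0.05 in limma, 2, 3, 2 and 1 of the 15 genes were higher and 1, 0, 0 and 1 were lower. Over all 11364 probes, 2022, 1783, 1834 and 1058 had such a p, counting both directions. The median changes of the 15 genes were 0.08, 0.12, 0.06 and 0.0067 log2 units. Their ranges were -0.25 to 0.37, -0.07 to 0.38, -0.03 to 0.34 and -0.32 to 0.23 for the same drugs.

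The gene that passed was Cry1, which encodes the cryptochrome partner of the Period proteins. It rose 1.22-fold with desipramine (log2 change 0.29 ± 0.08 SE, n = 6 and 6, limma adjusted p = 0.0398) and 1.26-fold with haloperidol (0.34 ± 0.08, limma adjusted p = 0.019), against changes of -0.07 with fluoxetine and -0.11 with diazepam. Both calls were fragile. Across 23 alternatives each, the desipramine change kept its sign but missed the threshold in 12 and the haloperidol change in 6, with adjusted p up to 0.784 and 0.523. Single arrays sufficed: untreated arrays 2, 3, 4 and 5 and desipramine arrays 3, 4 and 5 for desipramine (0.24 to 0.30, limma adjusted p from 0.0576 to 0.125), and untreated array 5 and haloperidol array 2 for haloperidol (0.29 and 0.31, limma adjusted p = 0.0622 and 0.0536).

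The following genes are given for their place in the loop and were chosen after their values were seen. Among the activators, Bmal1 had changes of 0.08, 0.19, -0.03 and -0.21 with desipramine, fluoxetine, haloperidol and diazepam, Npas2 lay between -0.04 and 0.19, Bmal2 had changes of -0.0031, 0.38, 0.0098 and -0.23 (limma adjusted p = 0.0801 with fluoxetine), and the probe of Clock was detected on only 2 arrays and not tested. Per2, the other widely expressed Period gene, had changes of 0.04, 0.27, 0.14 and -0.32, none past the threshold. Dbp and Tef, the D-box activators that Nfil3 opposes, had changes of 0.10, 0.16, 0.06 and 0.23 and of 0.16, 0.30, 0.08 and 0.19, none past the threshold.

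**Figure D5:**
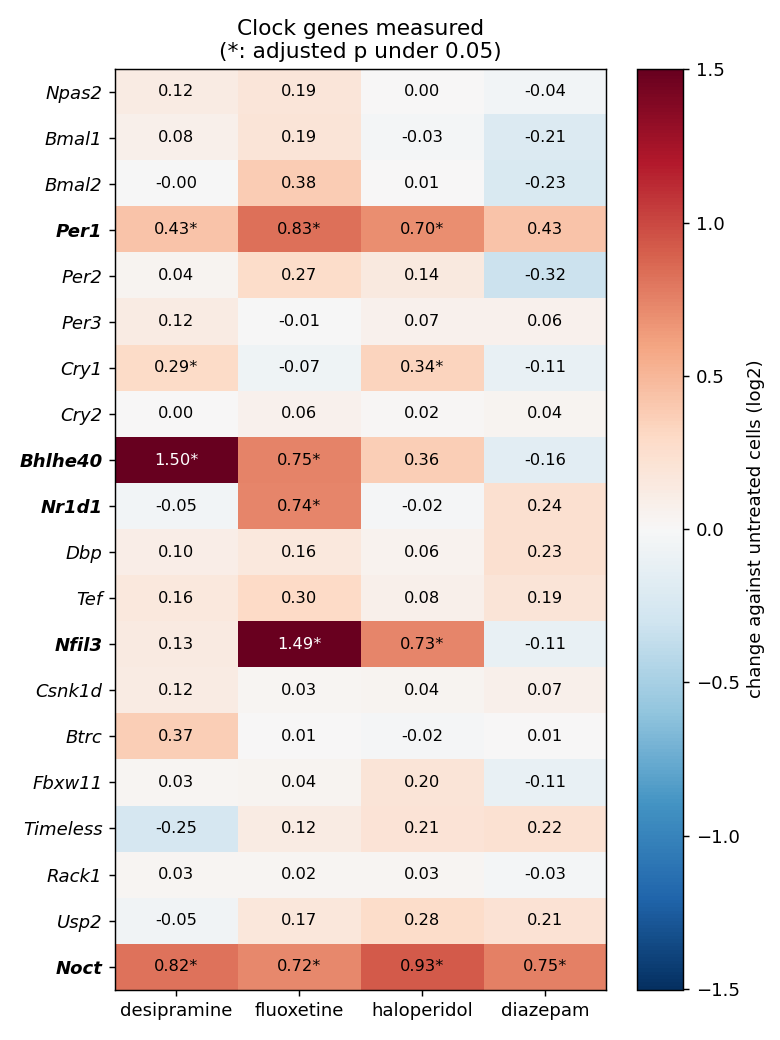
Change against untreated cells (log2, colour and printed value) of the 20 measured clock genes (rows, members in bold) with each drug (columns), with an asterisk where the adjusted p was under 0.05. Asterisks stand at the 5 members and at Cry1 only.

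Lists of genes known to respond to cAMP, to glucocorticoids or in the integrated stress response were counted beside the members. The shares of all probes higher were those given above, 3.37%, 2.21%, 2.28% and 0.378% for desipramine, fluoxetine, haloperidol and diazepam. Of 15 measured cAMP and CREB targets, 5 rose and 2 fell with desipramine, 3 rose with fluoxetine, 2 with haloperidol and 3 with diazepam, with Sik1 the largest rise under diazepam (0.98 ± 0.19) and Egr1 under fluoxetine (0.86 ± 0.15). Of 10 measured glucocorticoid targets, 2 rose and 1 fell with desipramine, and 5, 1 and 1 rose with fluoxetine, haloperidol and diazepam. Dusp1, a phosphatase gene, is in both lists, and its fall with desipramine (-0.64) is counted in each. Sgk1, a kinase gene of the glucocorticoid list, rose by 0.96 ± 0.08 with fluoxetine, and Errfi1, which encodes an inhibitor of the EGF receptor, by 0.65 ± 0.12 with diazepam. Of 14 measured genes of the integrated stress response, 9 rose with desipramine, 9 with fluoxetine, 6 with haloperidol and 0 with diazepam, and 0 fell with any drug, at medians of 0.52, 0.93, 0.36 and 0.24. With diazepam 7 of them were higher at an unadjusted p under 0.05 in limma. So were 6 of the 15 cAMP and CREB targets and 4 of the 10 glucocorticoid targets. Over all 11364 probes, 1058 had such a p with diazepam, counting both directions. Chac1 rose by 2.32 ± 0.16 and Trib3 by 1.97 ± 0.18 with fluoxetine. These counts are descriptions, and no list was tested as a set.

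Across the 28 arrays, the genes whose log2 intensity followed each member most closely differed between members. Nfil3 was followed most closely by Fhl2 (Pearson r = 0.967), Atf3 (0.947) and Dusp10 (0.926), and Bhlhe40 by Klf10 (0.914), Spry4 (0.906) and Tnfrsf12a (0.897). For Per1 they were Siah2 (0.862), Ppp1r15a (0.842) and Usp53 (0.836), and for Nr1d1 they were Ddit3 (0.831), Cimap1c (0.822) and Ccn1 (0.806). Noct had weaker likeness, with Pvr (0.720), Errfi1 (0.708) and Siah2 (0.704). By rank, Spearman rho for these 3 was 0.554, 0.365 and 0.574. For the genes named beside Nr1d1 it was 0.654, 0.752 and 0.635, and for those beside Per1, Nfil3 and Bhlhe40 it ran from 0.830 to 0.919. Among the members themselves r ran from -0.04 for Bhlhe40 with Nr1d1 to 0.70 for Nfil3 with Nr1d1. These values are descriptions over 28 arrays that share the 5 groups.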

How the data were processed

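The deposited table that the authors named non-normalized gives an intensity per probe and array on a linear scale and a detection p-value from the array's negative controls, and GenomeStudio 1.9.0 is named in the submitters' processing notes. The authors also deposited normalized intensity values, whose method is not given in the sources used here; these served as an alternative. Columns of 2 further arrays (4 columns) matched no sample and were not used. Background correction and quantile normalization used neqc in limma 3.58.1 (R 4.3.3) with an offset of 16, which pulls changes of dim probes toward 0. Whether background had been subtracted before deposit is not given in the sources used here, which bears most on dim probes: with an offset of 50 the Noct change with desipramine was 0.60 log2 units, against 0.82. A probe was kept where 4 or more arrays gave it a detection p below 0.05 (11364 of 22523). GEO's platform annotation gave 1 symbol to 13793 probes and none to 8730. All 28 arrays were fitted in limma with 1 mean per group, and p was adjusted by Benjamini-Hochberg over all probes kept within a comparison. The fit was also run on simulated data with independent noise on each array. That run cannot bear on the use of replicate numbers, because the simulated arrays shared none. No depth applies to arrays; their number limits precision.

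Same-numbered arrays correlated, after group means were removed, at 0.223 to 0.467 for desipramine with untreated and 0.104 to 0.508 for fluoxetine with untreated. With untreated cells the values ran from -0.0050 to 0.419 for haloperidol and from 0.036 to 0.361 for diazepam. Differently numbered arrays had medians of -0.031 and -0.015 there, so pairing by number was present but uneven. Between drugs, the values were 0.139 to 0.462 for desipramine with fluoxetine and 0.285 to 0.420 for desipramine with haloperidol. For fluoxetine with diazepam they were 0.257 to 0.510. They were 0.017 to 0.382 for desipramine with diazepam, 0.0021 to 0.509 for fluoxetine with haloperidol and 0.061 to 0.266 for haloperidol with diazepam. The printed values come from the fit without the block, which was an alternative. The members and lists were chosen with earlier results of these data known. Every member, each other clock gene past the threshold, the 3 genes most like each member and up to 2 examples per further list were named. An exact permutation test planned for the Bhlhe40 minus Nfil3 difference is not reported, because that pair was chosen for its pattern.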

Additional observations from a re-analysis of the deposited data

Results flagged for a closer look

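Of 25 sets of arrays (5 genes in 5 groups), 4 held an array whose gap to its nearest neighbour was a large share of the group's range by Dixon's test; chance flags about 1 group in 20. Desipramine array 4 had the lowest Per1 value of its group, 7.85, against 8.16 for the next. Desipramine array 6 had the lowest Bhlhe40 value, 10.46, against 11.03 for the next. The Noct values of fluoxetine array 6, 6.38, and of diazepam array 6, 6.63, were each the lowest of their groups, against 6.83 and 6.92 for the next. Without desipramine array 6 the count of members called against untreated cells stayed at 3.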

How the results depend on the processing

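Of 450 alternative values for the 5 genes against untreated cells, 421 kept their direction and their side of the threshold, 13 lost the call, 6 gained one and 10 changed sign. Of 660 for the differences between drugs, the numbers were 600, 41, 2 and 17. Every change of sign was in a difference that passed under neither setting.

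Median scaling left 0 members called for diazepam against untreated cells in limma (1 at an unadjusted p under 0.05) and 1 for haloperidol against diazepam. It gave -0.0067 for Nfil3 with desipramine against untreated cells, -0.0019 for Noct between desipramine and fluoxetine and 0.077 for Noct between fluoxetine and diazepam, which was 0.0075 in the authors' normalized values. Without the detection filter 1 member was called for haloperidol against diazepam.

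With the replicate block 2 members were called for desipramine against diazepam (Nr1d1 was added, -0.35, limma adjusted p = 0.0274) and no call against untreated cells changed. Arrays numbered 1 to 4 alone gave 2 members for fluoxetine against diazepam, 1 for haloperidol against diazepam, 0.063 for Nfil3 with diazepam against untreated cells and 0.00030 for Noct between fluoxetine and diazepam. Arrays numbered 5 and 6 alone, 2 per group, gave 0 members for desipramine and for diazepam against untreated cells (3 each at an unadjusted p under 0.05 in limma), and 1 each for fluoxetine and haloperidol. Between drugs they gave 1 for fluoxetine against diazepam and 0 for desipramine against fluoxetine, desipramine against haloperidol, fluoxetine against haloperidol and haloperidol against diazepam (3, 2, 3 and 4 unadjusted in limma), -0.050 for Per1 between fluoxetine and haloperidol, and 1.43 for the Bhlhe40 minus Nfil3 difference, which is untested. Omission of the arrays numbered 1, tried after seeing the data, gave 2 members for diazepam against untreated cells, 1 for haloperidol against diazepam and -0.11 for Per1 between desipramine and diazepam.

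Leaving out single arrays gave 1 to 2 members called for diazepam against untreated cells and 1 to 2 for haloperidol against diazepam. The changes ran from -0.099 to 0.031 for Nr1d1 with desipramine and -0.071 to 0.035 with haloperidol against untreated cells, and from -0.079 to 0.048 for Nr1d1 between desipramine and haloperidol. They ran from -0.094 to 0.069 for Per1 and -0.016 to 0.12 for Noct between desipramine and diazepam, and from -0.11 to 0.064 for Noct between fluoxetine and diazepam.

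Probes called with desipramine, fluoxetine, haloperidol and diazepam were 245, 158, 84 and 21 under median scaling and 0 (842 unadjusted in limma), 25, 9 and 2 in arrays numbered 5 and 6. They were 1058 for desipramine with array weights, 48 for diazepam with only the 2 groups compared, and 47 without diazepam array 5 or 6. Arrays numbered 1 to 4 gave 220 for haloperidol and 17 for diazepam, and leaving out arrays numbered 1 gave 283 for fluoxetine and 245 for haloperidol. Apart from the settings whose construction removes arrays, the cause of these changes was not tested.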

Other observations

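After group means were removed, Nfil3 and Bhlhe40 varied in opposite directions over the 28 arrays (Pearson r = -0.51, and -0.35 without desipramine array 6), but under median scaling r was 0.34, so its sign depends on the scaling.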
